A study of Homo sapiens with 6 samples.

Results

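The transcripts described here encode 10 proteins that make, break down or sense prostanoids, the cyclooxygenases PTGS1 and PTGS2, the terminal synthases PTGES, PTGES2, PTGIS and TBXAS1, the degrading enzyme HPGD, and the prostaglandin E2 receptors PTGER2, PTGER3 and PTGER4. They were measured in HCC-LM3, an established human hepatocellular carcinoma line, infected with a lentivirus that carried either an shRNA against ASPP2 (shASPP2) or a control shRNA (shNon), with RNA taken after 1 week. The 3 samples of each group came from separate cultures, per the labels, and each was hybridised to its own 1-colour array. Control cells therefore also carried a lentivirus, all results come from a single line, and the labels name a single ASPP2 shRNA. The array held 27 features for the 10 genes among 45033 in all, found by the gene name in the array's own annotation. The genes were chosen by function around PTGS1, which was selected on its difference between shASPP2 and shNon on these same arrays. That contrast is therefore given for all 27 features as a description. Counts of features past the threshold of the fit over the whole array are listed beside the share of all features, and nothing is supported with them.

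Prostanoids are short-lived lipid signals made from arachidonic acid, which phospholipases release from membranes. A cyclooxygenase turns arachidonic acid into prostaglandin H2. Terminal synthases then convert this intermediate into prostaglandin E2, prostacyclin or thromboxane, and 15-hydroxyprostaglandin dehydrogenase (HPGD) inactivates prostaglandin E2. PTGS1 (COX-1) is usually described as the constitutive and PTGS2 (COX-2) as the inducible cyclooxygenase, and PTGS2 is often raised in carcinomas, those of the liver included.

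A signal is called above background here where it exceeded 2 times the level of the array's random-sequence probes, which match no transcript and read 30.4 to 33.3 on the 6 arrays. By this measure 11 of the 27 features were above background on all 6 arrays (50.8% of all features were), 5 on some arrays, and 11 on none (26.5% of all features). TP53BP2, the gene of ASPP2, was lower in shASPP2 on both of its features, by 1.11 and 1.41 on the log2 scale, with no overlap between the groups. On neither feature did it pass the limma test over all features (adjusted p = 0.203 and 0.0991). The liver origin of the line was visible in only part of its markers. Of 10 hepatocyte markers, ALB, TF and HNF4A were above background on all arrays, ALB only narrowly, with readings of 63.1 to 93.1.

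On the brightest feature of each gene, the largest differences in the family were at its first enzymes. PTGS1 was 4.47-fold to 5.27-fold lower in shASPP2 on its 3 features. PTGS2 was 2.87-fold lower on its brightest feature and 1.28-fold to 2.00-fold lower on the others. Of the terminal synthases, PTGIS was 2.13-fold and PTGES 1.91-fold lower on the brightest feature of each. PTGES2, TBXAS1 and the degrading enzyme HPGD differed by at most 1.27-fold. The 12 receptor features lay at or near background in both groups. In RNA from whole cultures, fewer cells with a transcript and less of it per cell cannot be told apart.

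Of the 27 features, 2 passed an adjusted p of 0.05 in the limma fit over all features, both of them PTGS1 and both lower, where 0.138% of all features passed and 0.0844% passed and were lower. The other PTGS1 feature, DQ180741, and the brightest PTGS2 feature, AJ634912, lay just over the threshold (limma adjusted p = 0.0502 and 0.0520). On 10 features every shASPP2 array lay below every shNon array (9.17% of all features), and on 1 every shASPP2 array lay above (9.46%), while 16 overlapped. Both calls were lost when any 1 of the 6 arrays was left out. The 10 lower features were the 3 of PTGS1, 2 each of PTGS2 and PTGIS, and 1 each of PTGES, TBXAS1 and PTGER2. The median log2 difference, shASPP2 minus shNon, was -0.29 over the 27 features and 0.01 over all features. Since PTGS1 was chosen for this contrast, nothing about the pathway as a whole follows from these counts.

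**Figure D1:**
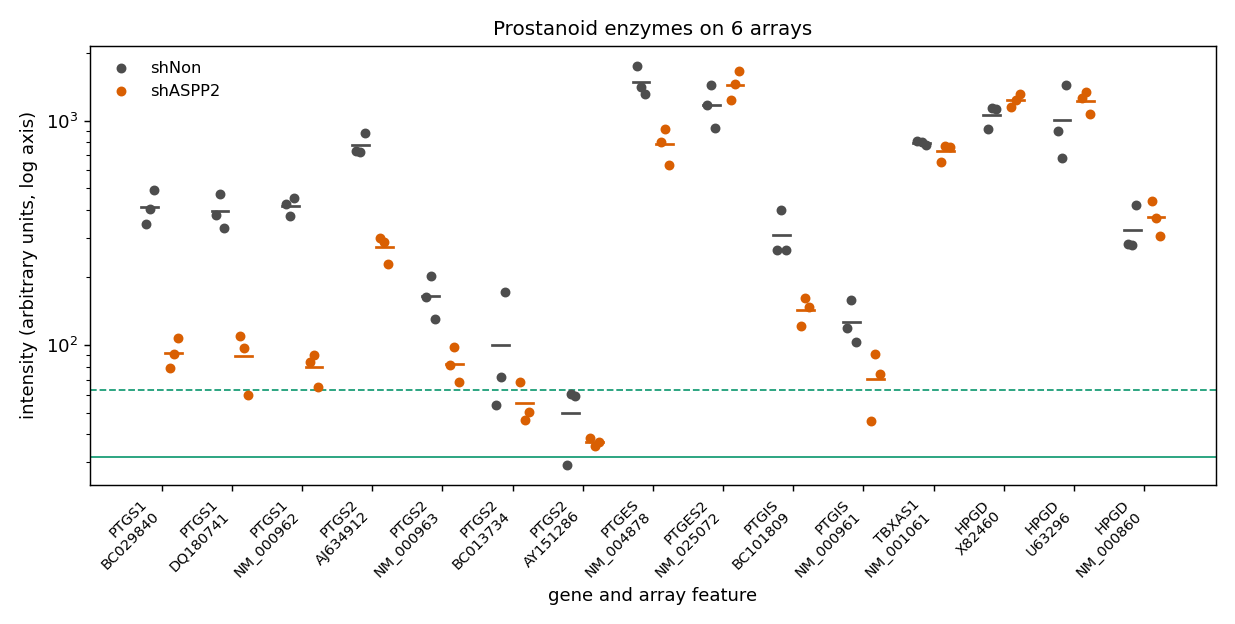
Intensity (log axis, arbitrary units) of the 15 enzyme features on the 3 shNon arrays (grey) and the 3 shASPP2 arrays (orange), with a bar at each group's mean. The solid green line is the random-probe level and the dashed line 2 times that level. All PTGS1 points in shASPP2 lie below all those in shNon. The groups of TBXAS1 and of HPGD X82460 lie close together, and those of PTGES2, HPGD U63296 and HPGD NM_000860 overlap.

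The bases upstream of the cyclooxygenase genes and of PTGES are shown. These are members with lower signals whose start sites RefSeq gives. TBXAS1 and PTGER2 also had such features and start sites, but their windows are not shown. A window of 250 bases ending at the base before the RefSeq start was read on the gene's strand in GRCh38.p14. It covers chr9:122370283-122370532 (plus strand) for the outer of the 2 PTGS1 starts, chr1:186680424-186680673 (minus strand) for PTGS2, and chr9:129753043-129753292 (minus strand) for PTGES. Capitals mark matches, on either strand, to 3 motifs, the hexamer TATAAA at which the general transcription machinery can assemble, the GGGCGG that Sp1 can bind, or TGACG, the core of a cAMP response element.
PTGS1: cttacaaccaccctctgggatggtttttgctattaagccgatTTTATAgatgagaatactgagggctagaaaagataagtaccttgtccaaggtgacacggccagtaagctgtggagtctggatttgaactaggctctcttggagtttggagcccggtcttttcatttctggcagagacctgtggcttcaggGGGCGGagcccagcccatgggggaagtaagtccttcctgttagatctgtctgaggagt
PTGS2: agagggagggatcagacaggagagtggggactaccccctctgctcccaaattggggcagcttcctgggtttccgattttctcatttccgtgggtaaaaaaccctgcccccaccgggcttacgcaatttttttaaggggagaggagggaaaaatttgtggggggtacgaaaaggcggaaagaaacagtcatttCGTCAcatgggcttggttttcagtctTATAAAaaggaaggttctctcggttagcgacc
PTGES: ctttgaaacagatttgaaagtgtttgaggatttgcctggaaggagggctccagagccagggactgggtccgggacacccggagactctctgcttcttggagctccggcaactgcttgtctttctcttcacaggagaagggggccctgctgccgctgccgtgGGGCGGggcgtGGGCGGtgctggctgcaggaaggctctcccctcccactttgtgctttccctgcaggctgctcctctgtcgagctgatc

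The PTGS2 window held TATAAA 32 to 27 bases before the start and TGACG, on the opposite strand, 58 to 54 bases before it. It held no GGGCGG. In the PTGS1 window GGGCGG lay 58 to 53 bases before the start, and TATAAA was present only on the opposite strand, 208 to 203 bases before it. The PTGES window held GGGCGG at 2 places and neither of the other motifs. Matches to these short motifs are frequent. Among 35116 RefSeq windows of the same length, 42.6% held GGGCGG, 21.2% TGACG and 10.7% TATAAA. A match to TGANTCA (AP-1), or to the consensus of the NF-kB site or of the p53 decamer, was in none of these 3 windows, against 6.57%, 5.21% and 5.57% of all windows. All were searched on both strands, and no match says only that these letters are not in the window. The table had windows for 8 of the 10 members, not for PTGIS and PTGER3. Of the windows not shown, that of TBXAS1 held a match to TGANTCA, and that of PTGER4 a match to the NF-kB consensus.

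PTGS1 lies on chromosome 9, and its features cover 124173049 to 124197802 (hg18). On BC029840, the brightest feature on average, it read 346, 404 and 492 in shNon and 78.6, 91.0 and 107 in shASPP2. On DQ180741 the shNon arrays read 380, 471 and 332, and the shASPP2 arrays 110, 96.9 and 59.7. On NM_000962 they read 427, 376 and 452 against 84.2, 90.6 and 64.9. The groups did not overlap on any of the 3. The log2 differences were -2.16 (SE 0.214), -2.18 (SE 0.275) and -2.40 (SE 0.199) in that order, so that between 19.0% and 22.3% of the control signal was left. The 3 features share a gene and the same RNA, so they are repeat readings and not replicates. The size of the difference is less certain than its direction, since in shASPP2 the signal was only 2.61 to 3.01 times the random-probe level, and 1 of the 3 shASPP2 arrays was not above background on DQ180741. With 32 added to every intensity, the differences on BC029840 and NM_000962 were -1.84 and -2.01. The order of the shASPP2 arrays differed between features, since array 3 was the highest of the 3 on BC029840 and the lowest on the other 2 features.

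PTGS2 lies on chromosome 1, and its features cover 184907591 to 184916179 (hg18). Its 4 features did not carry the same signal. AJ634912, which was annotated to 184910107 to 184916045, read 735, 727 and 880 in shNon and 301, 288 and 229 in shASPP2, with no overlap (log2 difference -1.52, SE 0.193). NM_000963 read 163, 204 and 130 against 81.1, 98.0 and 68.3, again with no overlap, which left 50.1% of the control signal. The remaining 2 were dimmer and their groups overlapped. BC013734 read 53.9, 72.1 and 173 against 68.4, 46.1 and 50.4, so that its log2 difference of -0.69 (SE 0.423) leaned on shNon array 3 and was -0.20 without it. AY151286 was above background on no array, with 29.2, 60.2 and 59.5 against 38.3, 35.6 and 36.8 (-0.35, SE 0.299). All 4 differences thus had the same sign, and they were smaller on the features nearer to background.

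Of the 2 prostaglandin E synthases, PTGES, the inducible microsomal form, and PTGES2, a membrane-associated form, did not go the same way. PTGES (chromosome 9, 131540432 to 131555165) read 1756, 1415 and 1314 in shNon and 803, 920 and 636 in shASPP2. The groups did not overlap, and the log2 difference was -0.93 (SE 0.216), which left 52.4% of the control signal. PTGES2 (chromosome 9, 129922792 to 129930295) read 1177, 1442 and 924 against 1234, 1452 and 1659, and the groups overlapped. Its log2 difference was 0.31 (SE 0.227), with a 95% interval from -0.22 to 0.84, so a change of the size seen for PTGES in the downward direction lay outside its interval. Each of the 2 genes had a single feature.

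PTGIS, the prostacyclin synthase (chromosome 20, 47553817 to 47618135), was read by 2 features. On BC101809 it was at 265, 400 and 266 in shNon and 121, 162 and 148 in shASPP2 (log2 difference -1.09, SE 0.233). On NM_000961 it was at 119, 158 and 103 against 45.6, 91.6 and 74.3 (-0.88, SE 0.302). Neither feature had overlapping groups, though on NM_000961 the gap between the lowest control and the highest knockdown array was narrow and 1 shASPP2 array was not above background. TBXAS1, the thromboxane synthase of platelets and macrophages (chromosome 7, 139175420 to 139366471), read 810, 804 and 782 against 656, 768 and 766. Here too the groups did not overlap, but the log2 difference was only -0.13 (SE 0.168), with a 95% interval from -0.53 to 0.26. Non-overlap therefore stood for very different sizes of change in this family.

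HPGD (chromosome 4, 175647954 to 175680186), which oxidises prostaglandin E2 to an inactive product, had 3 features and a slightly higher signal in shASPP2 on each. X82460 read 920, 1139 and 1133 in shNon and 1155, 1235 and 1311 in shASPP2. U63296 read 903, 683 and 1444 against 1262, 1341 and 1066, and NM_000860 read 281, 279 and 420 against 440, 368 and 307. Only on X82460 did the groups not overlap, and shNon array 3 was the highest control reading on the other 2. The log2 differences of 0.22 (SE 0.179), 0.34 (SE 0.289) and 0.20 (SE 0.240) were of the order of their errors, and each 95% interval included 0.

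**Figure D2:**
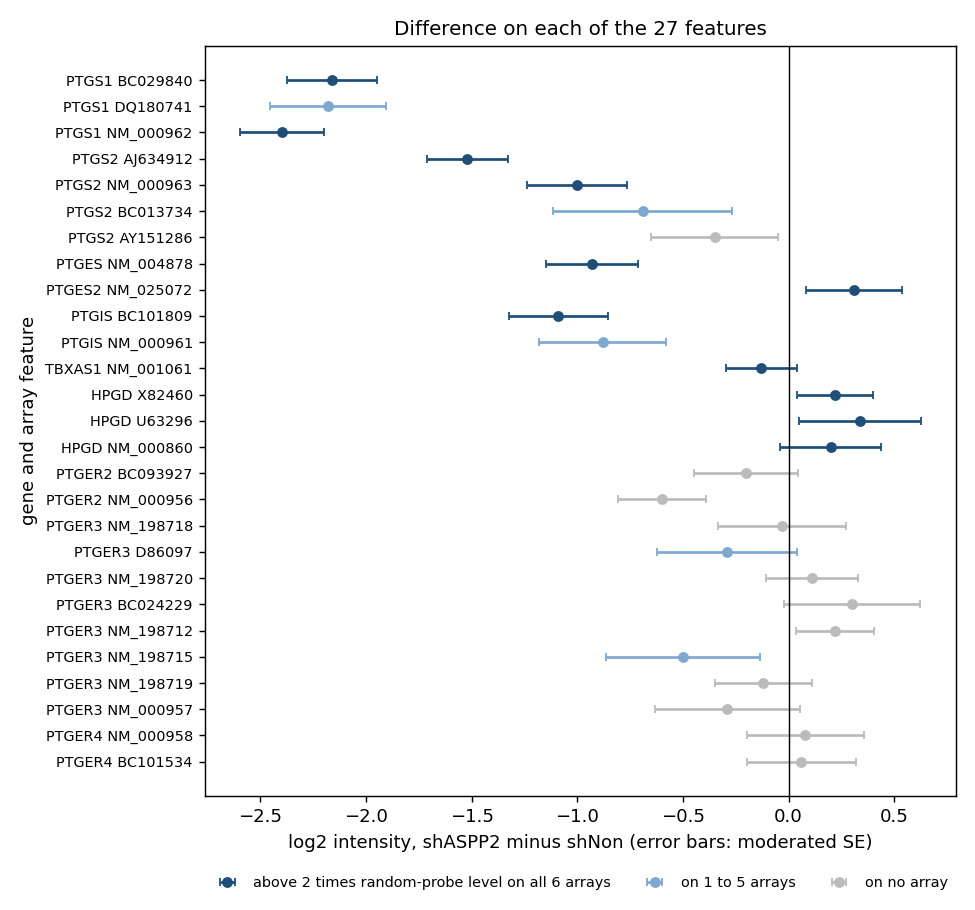
Log2 intensity in shASPP2 minus shNon for each of the 27 features, with limma's moderated SE as error bars. Dark blue features were above 2 times the random-probe level on all 6 arrays, light blue on some and grey on none. The PTGS1 features lie between -2.40 and -2.16, and the receptor features scatter around 0.

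The receptors PTGER2 and PTGER4 raise cyclic AMP when prostaglandin E2 binds, and PTGER3 mostly lowers it. Of their 12 features, 10 were above background on none of the 6 arrays. The other 2, both of PTGER3, were above it on a single shNon array each. PTGER2 (chromosome 14, 51850862 to 51865074) read 37.9, 42.6 and 47.5 against 23.0, 33.7 and 28.2 on NM_000956, with no overlap and a log2 difference of -0.60 (SE 0.208). On its other feature, BC093927, it read 40.7, 27.8 and 50.3 against 36.3, 31.9 and 32.8, and the groups overlapped (-0.20, SE 0.246). Since both features stayed below 2 times the random-probe level, the difference on NM_000956 is not a reliable measure of the transcript.

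PTGER3 (chromosome 1, 71090623 to 71286085) had 8 features, annotated to different transcripts of the gene, with single readings between 16.6 and 68.5. Their log2 differences ran from -0.50 to 0.30, and the groups overlapped on all 8. The lowest, on NM_198715, came from 67.1, 24.3 and 44.7 in shNon against 27.2, 26.4 and 35.8 in shASPP2, where the controls spread more widely than the groups differed. PTGER4 (chromosome 5, 40715788 to 40729594) had 2 features with readings between 23.1 and 44.6 and log2 differences of 0.08 (SE 0.277) and 0.06 (SE 0.258). At this signal a fall in any of the 3 receptors was not detectable. No shASPP2 reading of the 12 features exceeded 53.3.

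**Figure D3:**
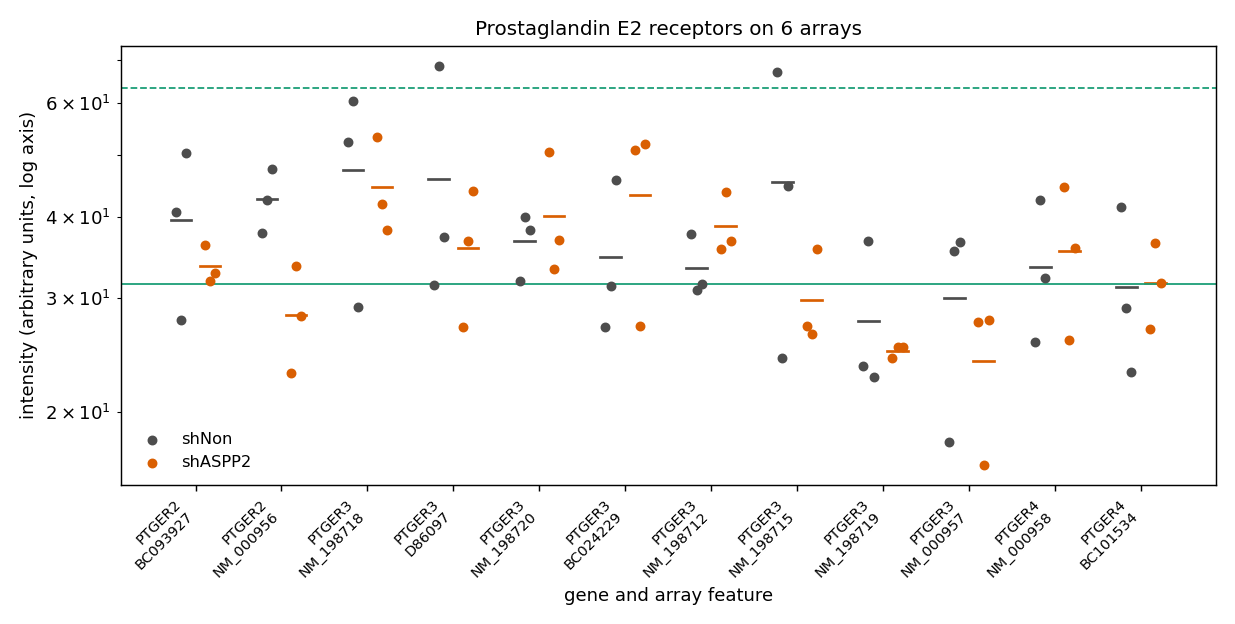
Intensity (log axis, arbitrary units) of the 12 receptor features on the 3 shNon arrays (grey) and the 3 shASPP2 arrays (orange), with a bar at each group's mean. The solid green line is the random-probe level and the dashed line 2 times that level. Only 1 shNon reading each of D86097 and NM_198715 (PTGER3) lies above the dashed line.

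The rest of arachidonic acid metabolism was read through 7 lists with 74 genes, each represented by its brightest feature. None of the 74 passed an adjusted p of 0.05 over all features in limma, and none of their 151 features did. Without adjustment 12 genes had a p under 0.05 (16.2%; 11.4% of all features), 7 of them higher and 5 lower in shASPP2. The groups did not overlap in 19 of the 74 (25.7%; 18.6% of all features and 18.8% with 1 feature a gene). The median log2 difference of the 74 genes was 0.01. In a limma fit that let the variance follow the mean intensity and damped outlying features (the trend fit, chosen as an alternative), 4 genes passed (2.11% of all features did), 2 higher and 2 lower. In that fit 6 of the 27 prostanoid features were past the threshold, all lower (1.09% of all features were past it and lower), namely 3 of PTGS1 and 1 each of PTGS2, PTGES and PTGIS.

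Among the genes that supply arachidonic acid, none of 19 phospholipases and 12 handling genes passed. PLA2G4A, the cytosolic phospholipase that releases arachidonic acid for the cyclooxygenases, had a log2 difference of -0.34 (95% interval -0.93 to 0.25). It was outside the naming rule and is given for its role. PLA2G12B had -0.75 (SE 0.198, limma adjusted p = 0.256), but lay near background at 41.0 ± 7.14 in shNon and 24.2 ± 2.10 in shASPP2 (SD, n = 3). PLA2G12A, a secreted phospholipase, read 224 ± 44.1 against 167 ± 1.51 (-0.41, SE 0.196, limma adjusted p = 0.490; SD, n = 3).

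The desaturases FADS2 and FADS1, which build arachidonic acid from dietary linoleic acid, had the smallest p-values of the handling list. FADS2 read 1195, 1725 and 1301 in shNon and 2618, 3089 and 2699 in shASPP2 (log2 difference 1.01, SE 0.204, limma adjusted p = 0.177). FADS1 read 4269, 4859 and 4283 against 6892, 6915 and 6424 (0.60, SE 0.166, limma adjusted p = 0.271). The groups overlapped for neither, and both genes passed in the trend fit of limma (adjusted p = 7.39e-04 for FADS2 and 0.00834 for FADS1). FADS2 also passed when only features at or above the median level were tested (limma adjusted p = 0.0386). Over the 16 alternatives the adjusted p ran from 7.39e-04 to 0.566 for FADS2 and from 0.00834 to 0.629 for FADS1.

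None of the 7 other prostanoid synthases, the 7 genes of breakdown and transport and the 7 other receptors passed. HPGDS (-0.78, SE 0.319, limma adjusted p = 0.419) and PTGDS (-0.76, SE 0.364, limma adjusted p = 0.488), the 2 prostaglandin D synthases, were near background, and their groups overlapped. PTGES3, the cytosolic prostaglandin E synthase also known as the HSP90 co-chaperone p23, had 0.03 (95% interval -0.38 to 0.45), given for its role. CBR3, a carbonyl reductase, had 0.55 (SE 0.205, limma adjusted p = 0.387), and SLCO2A1, the prostaglandin uptake carrier, 0.33 (SE 0.192, limma adjusted p = 0.565). SLCO2A1 was above background on none of the 3 shNon arrays, and its other features had -0.12 and 0.52. The transporter ABCC4, which exports prostaglandin E2 and is given for its role, had -0.13 (95% interval -0.52 to 0.26). Of the receptors, PTGFR had 0.50 (SE 0.263, limma adjusted p = 0.526) and PTGDR2 0.56 (SE 0.341, limma adjusted p = 0.578), with overlapping groups. Of the 7 genes of the receptor list only PTGFRN, which encodes a regulator of the prostaglandin F receptor and no prostanoid receptor itself, was above background on all 6 arrays.

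The branches that compete for arachidonic acid likewise held no gene past the threshold, with 13 lipoxygenase and leukotriene genes and 9 epoxygenase and hydroxylase genes measured. LTA4H, the leukotriene A4 hydrolase, read 4119, 3451 and 4691 in shNon and 2931, 2434 and 2250 in shASPP2, without overlap (log2 difference -0.68, SE 0.202, limma adjusted p = 0.296). It passed in the trend fit (limma adjusted p = 0.0124; up to 0.675 over the alternatives). ALOX5AP, the activator of 5-lipoxygenase, had 0.40 (SE 0.169, limma adjusted p = 0.440) at a level near background. EPHX2, which hydrolyses epoxides of arachidonic acid, read 628, 170 and 219 against 80.7, 101 and 99.9 (-1.61, SE 0.459, limma adjusted p = 0.282). The control readings of EPHX2 were far apart, and without shNon array 1 the difference was -1.04. It passed in the trend fit (limma adjusted p = 0.0397; up to 0.628 over the alternatives). CYP4F3, a leukotriene hydroxylase, had -0.58 (SE 0.213, limma adjusted p = 0.377).

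**Figure D4:**
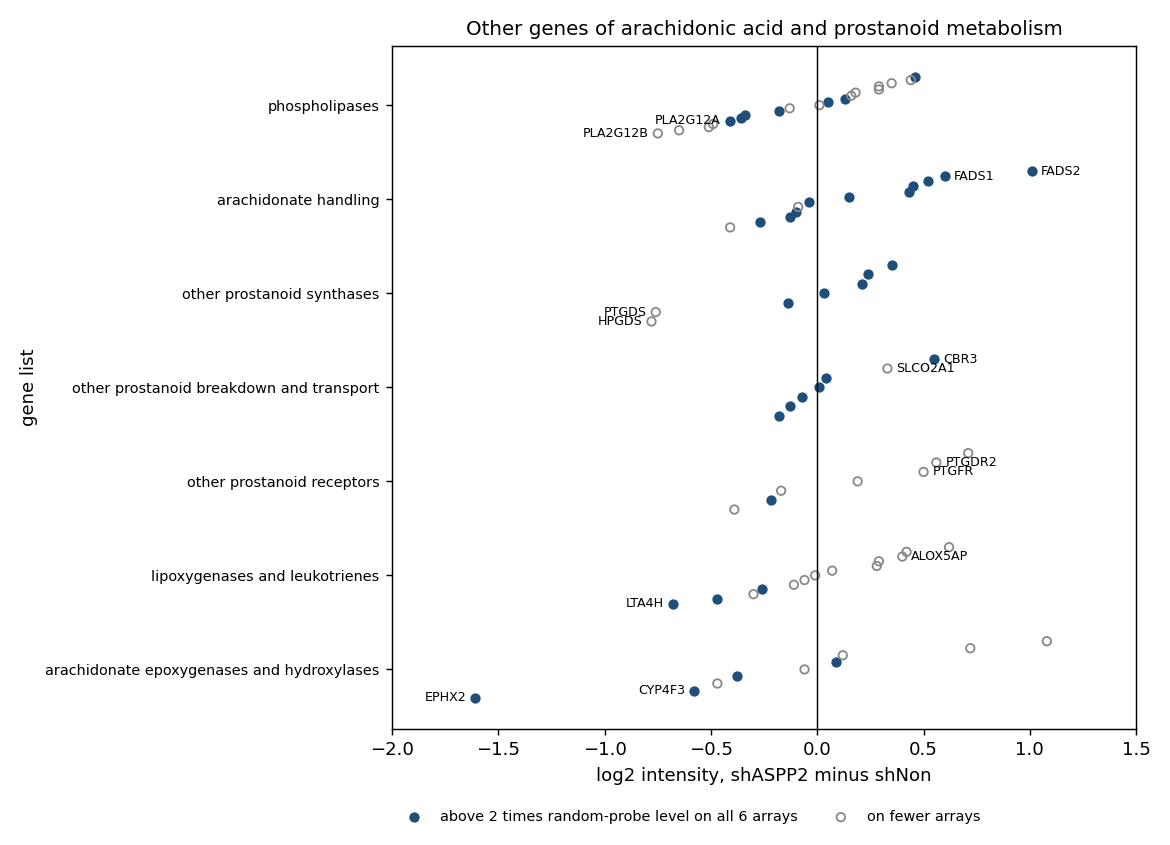
Log2 intensity in shASPP2 minus shNon for the brightest feature of each of 74 other genes of arachidonic acid and prostanoid metabolism, by gene list. Filled points were above 2 times the random-probe level on all 6 arrays and open points on fewer, and the 14 genes named by rule are labelled. FADS2 lies at 1.01 and EPHX2 at -1.61, and none of the 74 passed the test over all features.

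The genes next to the members with lower signals were read for comparison, a description added after the values had been seen. Within 250 kb of PTGS1 on hg18 there were 13 other named genes. Their log2 differences ran from -0.28 to 0.43, and the groups overlapped in all 13. Of the 13, only MRRF, NDUFA8 and RBM18 were above background on all 6 arrays, with differences of 0.07, 0.16 and 0.09. The genes at both ends of the range, OR1N2 and OR1Q1, were above background on no array. Near PTGS2 lay PDC and PLA2G4A, at -0.19 and -0.34, and PDC was above background on no array. The 9 named genes near PTGES ran from -0.38 to 0.46. The groups did not overlap in 1 of them, C9orf50, which was above background on no shNon array. The 6 near PTGIS ran from -0.61 to 0.24. Among these the groups did not overlap in 1, SLC9A8, which was lower in shASPP2 at -0.61 (SE 0.226, limma adjusted p = 0.386). SLC9A8 was above background on all 6 arrays. Over the whole array the groups did not overlap in 18.6% of features.

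The genes whose profile over the 6 arrays was nearest to that of the brightest PTGS1 feature were FGG, FMO5, ADH6, CLDN7 and TJP3. They were the nearest out of 14234 named genes above background on average, each gene taken at its nearest feature. Likeness was measured as the root mean square difference of log2 values after each feature's mean had been taken away, and it was 0.159, 0.204, 0.226, 0.236 and 0.260 for the 5 in that order. FGG, the fibrinogen gamma chain, read 1275, 1320 and 1593 in shNon and 272, 279 and 278 in shASPP2. CLDN7, a claudin of epithelial junctions, read 1038, 855 and 1101 against 239, 292 and 321. ADH6 read 142, 166 and 159 against 39.1, 35.6 and 55.7, and was above background on no shASPP2 array. It thus passed the filter on average level through shNon alone, and background limits its difference and its likeness. With 2 groups of 3 arrays this measure mostly reflects the difference between the groups. The other PTGS1 features were less near, at 0.317 and 0.466, and the brightest PTGS2 feature, at 0.413, took place 22 among the genes.

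**Figure D5:**
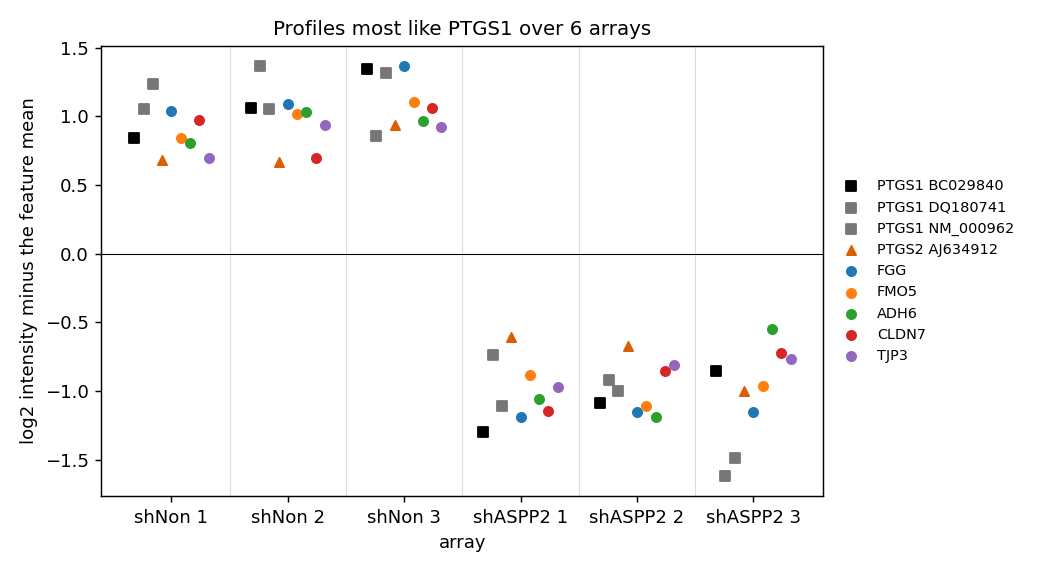
Log2 intensity on each of the 6 arrays minus the feature's mean, for the 3 PTGS1 features (squares), the brightest PTGS2 feature (triangles) and the 5 genes nearest to the brightest PTGS1 feature (circles). All points of shNon lie above 0 and all points of shASPP2 below it.

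PTGS1 and TBXAS1 are also abundant in platelets and macrophages, so markers of other cells were read beside them. Of 7 platelet and megakaryocyte markers none was above background on all arrays, and their summed intensity was 310 to 380 in shNon and 384 to 452 in shASPP2. Of 10 leukocyte markers CD68 and ITGAM were above it, with summed intensities of 3089 to 4131 and 4071 to 4631. Most of that sum was CD68, which read 3043 ± 438 and 3666 ± 287 (SD, n = 3). CD14 and CSF1R, above background on no array, were the only ones of the 10 to read lower in shASPP2 (log2 differences -0.36 and -0.50). The others read higher, by 0.03 for MS4A1 to 0.74 for LYZ, and none of the 10 passed the limma test over all features. For endothelium, where PTGIS is abundant, 1 of 6 markers, PECAM1, was above background on all arrays, and the summed intensity was lower in shASPP2 (2050 to 2183 against 1025 to 1244). Most of that sum was PECAM1, which read 1866 ± 84.7 and 968 ± 134 (SD, n = 3). KDR, CDH5, VWF and the others were not above background on every array. Of these, KDR and VWF read slightly higher in shASPP2 (log2 differences 0.10 and 0.02), and CDH5, TEK and CLDN5 lower (-0.73, -0.47 and -0.28). None of the 6 passed the limma test over all features (adjusted p = 0.158 for PECAM1). Of 6 fibroblast markers, COL1A1 and LUM were above background on all arrays, with sums of 475 to 694 and 552 to 722. The part of such cells in the results was not tested.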

How the data were processed

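HCC-LM3 RNA from 3 shNon and 3 shASPP2 cultures was measured on 6 1-colour arrays. The authors deposited 1 intensity per feature and array, unlogged. The submitters' processing notes name RMA as the method, and its version and settings were not given in the sources used here. As usually run, RMA equalises the arrays' distributions and corrects background, and differences of dim features can come out too small. Of 45033 features 45031 had 3 probes; a row of 2508 random-sequence probes gave the background. Positions are on hg18, per the file headers.

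Log2 of the deposited intensities was fitted over all features with limma 3.58.1 (lmFit, eBayes; R 4.3.3) on group alone, two-sided, and Benjamini-Hochberg adjustment over all 45033 features. SE values are moderated, and 95% intervals come from the same fit. The number of arrays, 3 per group, limits the precision. Members were matched by the file's gene name; 38916 features were matched to RefSeq symbols (GRCh38.p14) by gene identifier for the other lists. A gene with several features was represented by the one with the highest mean log2 intensity. In the likeness measure it was represented by its feature nearest to the brightest PTGS1 feature. Pathway genes were named if past the threshold, or for the 2 smallest p-values of each list; the 5 genes nearest to PTGS1 were named by the likeness measure. The members and lists were chosen with earlier results of these data known. Promoter windows are RefSeq's. Alternatives were other scalings, filters, variance models, array weights, the replicate block, 1 feature a gene, 32 added before log2, the deposited value table, and leaving out each array.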

Additional observations from a re-analysis of the deposited data

How the results depend on the processing

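The authors' series-wide value table did not differ from the arrays' own files beyond rounding, and gave the same counts. Of 45033 features 62 were past the threshold. With only features at or above the median level 405 of 22517 tested were, and with 1 feature a gene 24 of 23595. Over all features the count was 952 with trend and robust variance and 237 with 32 added before log2. It was 0 with the replicate block, and 0 to 17 without single arrays. For the prostanoid features the count of 2 of 27 became 5 of 12 tested with only features at or above the median level. With 1 feature a gene it was 1 of 10 tested. It was 6 with trend and robust variance, 4 with 32 added before log2, and 0 with the block. With any single array left out it was also 0, where the fit has fewer samples. Unadjusted, 9 of the 27 had a limma p under 0.05 with all arrays, where 11.4% of all features did. With the block 9 of the 27 did, beside 4212 of 45033 features. Without single arrays 7 to 11 of the 27 did, beside 3317 to 5792 of 45033. The 3 PTGS1 features kept differences between -2.50 and -1.92 without single arrays. For the 151 pathway features the count of 0 became 2 (of 70 tested) with only features at or above the median level. It became 7 with trend and robust variance. For the 74 pathway genes it became 1 (of 36 tested) and 4 under these settings. It stayed at 0 for both under the other settings, the block and the leaving out of single arrays included. The cause of the differences between settings was not tested. The differences of the 2 PTGS1 features past the threshold stayed below 0 under every setting run, between -2.50 and -1.84 where they were tested.

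The labels number the replicates alike in both groups but do not say that a number marks a shared culture day, and the deviations of same-numbered arrays correlated at 0.056, -0.076 and -0.126, so the block was not used. Array signal limits the receptors and the dimmer PTGS2 features, which lay near the random-probe level.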
